A study of Caenorhabditis elegans with 9 samples.

Results

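F44E5.4 and F44E5.5 are adjacent, nearly identical inducible HSP70 genes of Caenorhabditis elegans. They were chosen by name: of the 7774 spots with a gene name in the platform's annotation, which cover 7200 genes, 1 spot carried each of the 2 names. Each array held 21888 spots in all. The study hybridised 9 2-colour arrays, 3 from each of 3 genotypes, which the labels call wt (wild type), hif-1 and vhl-1. On each array the Cy3 channel held an RNA labelled H and the Cy5 channel the RNA labelled N with the same genotype and replicate number, all as total RNA. The title of the series concerns the response to hypoxia, so H is taken to mean hypoxia and N normoxia. The sources used here do not give the alleles, the oxygen level, the exposure time, or the stage and number of the worms. Nor do they state whether the replicates were separate cultures, so the p-values cover only the spread among these samples, which may be technical.

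HSP70 proteins are chaperones that use ATP to bind and release exposed hydrophobic stretches of unfolded proteins. J-domain co-chaperones bring them their clients, and HSP90, the small heat shock proteins and the chaperonins work beside them. In C. elegans the heat shock factor HSF-1 drives the inducible members after heat and other protein-damaging stress, while other HSP70 genes are expressed constitutively. hif-1 encodes the oxygen-regulated subunit of the hypoxia-inducible factor. vhl-1 encodes the protein that marks HIF-1 for degradation in normal oxygen, so HIF-1 is stabilised in vhl-1 mutants.

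F44E5.4 lies on chromosome II at 11757107 to 11759311 and F44E5.5 at 11759662 to 11761861 (WBcel235). Both are annotated as protein-coding, with spans of 2205 and 2200 bases, and 350 bases separate them. Their spots were not neighbours in spot number. Gaps in the spot numbers divide the array into 32 runs, read here as print runs although no source states the layout. F44E5.5 fell in run 17 and F44E5.4 in run 19. Within these runs they held adjacent places, 281 (F44E5.5) and 280 (F44E5.4). All values below are log2 ratios of H over N, with the median spot of each array at 0, and describe a difference within one array, not a level. The ratio's direction and its logarithm's base are inferred (N over H as deposited, from the wording of the titles, and base 2) and not stated. The opposite direction would turn every sign without changing any test, and every rank and share counted here from the highest value would then be one from the lowest. As H was in Cy3 on every array, dye and condition cannot be told apart for a single spot, while a dye effect shared by the arrays drops out of a difference between genotypes. The genes are nearly identical in sequence, so RNA of either may bind to both spots, and the 2 values cannot be read as 2 independent genes.

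Both genes were higher in H than in N on all 9 arrays. The samples are bulk RNA, in which more RNA per cell and more cells with that RNA cannot be told apart. In wild type F44E5.4 was at 1.18, 1.53 and 3.18 on arrays 1 to 3, and F44E5.5 at 1.04, 1.81 and 3.26. Array 3 lay well above the other 2 for both genes. In the hif-1 mutant F44E5.4 was at 1.18, 1.93 and 4.23, and F44E5.5 at 1.21, 2.41 and 4.14. Again array 3 was the highest. In the vhl-1 mutant F44E5.4 was at 2.96, 4.69 and 4.42, and F44E5.5 at 2.93, 4.15 and 5.09. Array 1 was the lowest for both genes in each of the 3 genotypes. For both genes the lowest vhl-1 mutant array lay below the highest array of wild type and of the hif-1 mutant, so the genotypes overlapped. In linear terms the ratios ran from 2.06-fold (F44E5.5, wild type array 1) to 34.1-fold (F44E5.5, vhl-1 mutant array 3).

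**Figure D1:**
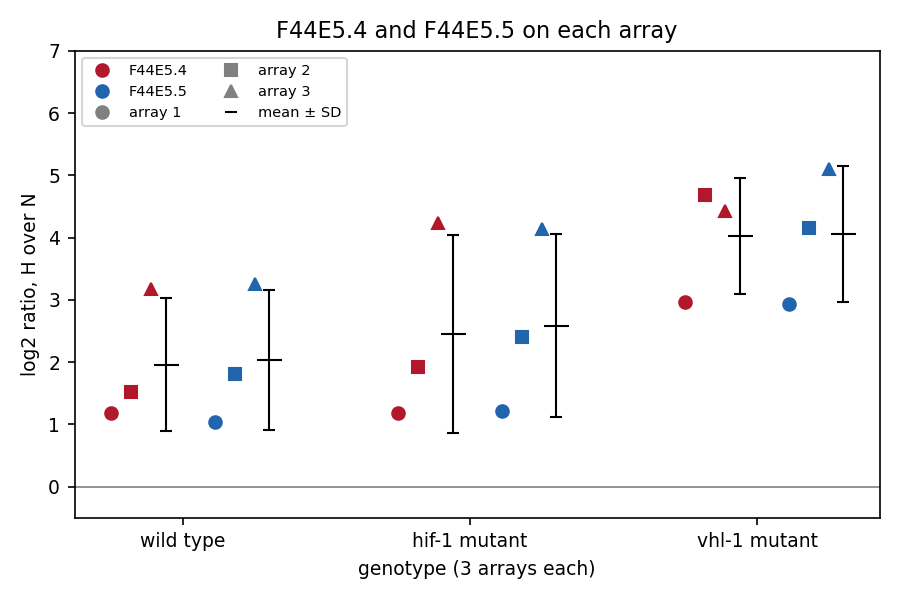
Log2 ratio of H over N for F44E5.4 (red) and F44E5.5 (blue) on each of the 9 arrays, grouped by genotype. Symbols mark arrays 1, 2 and 3, and the black bar with whiskers is the mean ± SD of 3 arrays. All values lie above 0, and the vhl-1 mutant arrays, from 2.93 to 5.09, overlap with array 3 of the other 2 genotypes.

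The pair was tested with limma over 20858 features (named genes and unnamed spots), with Benjamini-Hochberg adjustment over all of them and a threshold of 0.05. In wild type F44E5.4 averaged 1.96 ± 1.07 (SD, n = 3; limma adjusted p = 0.102), and F44E5.5 averaged 2.04 ± 1.13 (SD, n = 3; limma adjusted p = 0.0887). Thus 0 of the 2 genes passed in wild type, where 0.225% of all features passed as higher in H and 1298 features were higher at an unadjusted p under 0.05. Both genes were among the latter, with unadjusted limma p of 0.00237 and 0.00192. The 95% intervals of the fit ran from 0.84 to 3.09 for F44E5.4 and from 0.90 to 3.17 for F44E5.5. Without wild type array 3 the values were 1.35 and 1.42 (limma adjusted p = 0.419 and 0.388), and without wild type array 2 they were 2.18 and 2.15 (adjusted p = 0.304 and 0.338). When the fit left out hif-1 mutant array 3, which adds to the shared estimate of the spread, F44E5.4 passed in wild type (limma adjusted p = 0.0408) and F44E5.5 did not (0.0553). Both passed when the wild type arrays were fitted alone (adjusted p = 0.0340 for F44E5.4 and 0.0338 for F44E5.5).

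In the hif-1 mutant both genes rose, as did 0.475% of all features. F44E5.4 averaged 2.45 ± 1.59 (SD, n = 3; limma adjusted p = 0.0368), a ratio of 5.45, with a 95% interval of the log2 value from 1.32 to 3.57. F44E5.5 averaged 2.59 ± 1.47 (SD, n = 3; limma adjusted p = 0.0301), a ratio of 6.0, with an interval from 1.45 to 3.72. Each call was lost in some of the fits with an array left out. Without hif-1 mutant array 3 the values were 1.55 and 1.81 (limma adjusted p = 0.125 and 0.112). Without hif-1 mutant array 2 they were 2.71 and 2.68 (adjusted p = 0.0962 and 0.0986), and without vhl-1 mutant array 3 F44E5.4 had an adjusted p of 0.0519.

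In the vhl-1 mutant the pair showed the highest means of the 20858 features tested, F44E5.5 ranking first and F44E5.4 second. F44E5.4 averaged 4.03 ± 0.93 and F44E5.5 4.06 ± 1.09 (SD, n = 3; limma adjusted p = 0.000788 for each), with 95% intervals from 2.90 to 5.15 and from 2.92 to 5.19. In this genotype 4.03% of all features passed as higher. The third feature in that order, an unnamed spot, was at 3.37. Both calls held with each of the 9 arrays left out in turn, when the values ran from 3.69 to 4.56 for F44E5.4 and from 3.54 to 4.62 for F44E5.5. In the hif-1 mutant the 2 genes ranked at 4 (F44E5.5) and 5 (F44E5.4) of the 20858 features, and in wild type they ranked at 14 (F44E5.5) and 15 (F44E5.4).

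**Figure D2:**
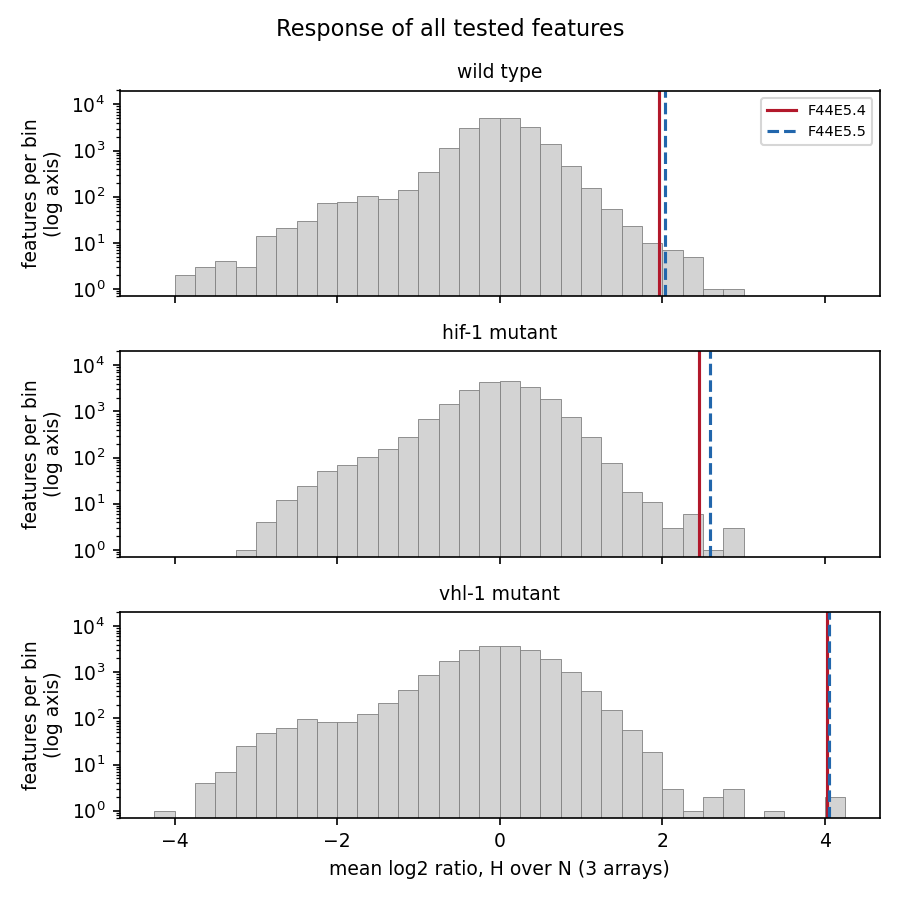
Mean log2 ratio of H over N over the 3 arrays of each genotype, for all 20858 tested features in bins on a log count axis, with F44E5.4 (solid red) and F44E5.5 (dashed blue). The pair lies in the upper tail in wild type and the hif-1 mutant, and apart from the rest at 4.03 and 4.06 in the vhl-1 mutant.

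Averaged over the genotypes, both genes rose, F44E5.4 by 2.81 (SE 0.301) and F44E5.5 by 2.89 (SE 0.303), with limma adjusted p of 5.82e-05 and 5.11e-05. For this average 11.0% of all features passed as higher. An exact two-sided sign-flip permutation test over the 9 arrays gave p = 0.00391 for each gene, the smallest value that 9 arrays allow. The lowest of the 9 arrays was at 1.18 for F44E5.4 and at 1.04 for F44E5.5. Ordered by that lowest value, they were the first and the second of the 19473 features measured on all 9 arrays. Of these features 1076 (5.53%) were above 0 on all 9 arrays. This ordering was chosen after the values had been seen and is a description. On single arrays the pair's place varied more: between 94.5% (F44E5.4, hif-1 mutant array 1) and almost all of the features lay below it, and on vhl-1 mutant array 3 F44E5.5 was the highest of 20805.

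The genotypes were compared to ask whether the rise depended on HIF-1 or on its regulation by VHL-1. The means were lowest in wild type and highest in the vhl-1 mutant, with the hif-1 mutant between, but no neighbours in that order differed beyond the test's threshold. For F44E5.4 the hif-1 mutant exceeded wild type by 0.48 (95% interval from -1.11 to 2.08; limma adjusted p = 0.974). For F44E5.5 it did so by 0.55 (from -1.05 to 2.16; adjusted p = 0.974). These differences were small beside the spread between arrays, and without hif-1 mutant array 3 they turned to -0.41 and -0.23. In this contrast limma called 0 of all features, and 1239 had an unadjusted p under 0.05.

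The vhl-1 mutant exceeded wild type by 2.06 for F44E5.4 (95% interval from 0.47 to 3.66; limma adjusted p = 0.375) and by 2.02 for F44E5.5 (from 0.42 to 3.62; limma adjusted p = 0.382). The corresponding unadjusted limma p were 0.0150 and 0.0175. With the arrays scaled to one spread the differences were 1.44 and 1.36. Neither passed, in a contrast where 0.00479% of all features did, and 2108 features had an unadjusted p under 0.05. Among the 20858 features the 2 differences ranked at 17 (F44E5.4) and 20 (F44E5.5) from the top. Against the hif-1 mutant the vhl-1 mutant was 1.58 higher for F44E5.4 (from -0.01 to 3.17; adjusted p = 0.773) and 1.47 higher for F44E5.5 (from -0.13 to 3.07; adjusted p = 0.790). No feature passed in limma there (0 called), and 1336 had an unadjusted p under 0.05. The intervals of the last comparison include 0 as well as 3 log2 units, and 3 arrays a genotype limited what could be told apart.

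The pair varied more between arrays of one genotype than most features. The SD over 3 arrays was 1.07 for F44E5.4 and 1.13 for F44E5.5 in wild type, where the median feature had 0.368. In the hif-1 mutant it was 1.59 and 1.47, against a median of 0.476, and in the vhl-1 mutant 0.931 and 1.09, against 0.338. Between 96.2% and 99.1% of the features had a smaller SD in the same genotype than the pair's members. Such a spread was not particular to the pair among genes with large rises. In wild type, hif-1 and vhl-1 the SD was 1.33, 1.26 and 0.886 for F26A3.4 and 0.938, 1.60 and 0.896 for cest-24. For dpsm-1 it was lower, at 0.468, 0.872 and 0.636. The standard error of a response was 0.521 for F44E5.4 and 0.525 for F44E5.5, against a median of 0.266 over all features.

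Between the genes themselves the values differed little. F44E5.4 minus F44E5.5 was 0.14, -0.28 and -0.08 in wild type, -0.03, -0.48 and 0.09 in the hif-1 mutant, and 0.04, 0.54 and -0.67 in the vhl-1 mutant, for arrays 1 to 3. Over the 9 arrays the difference averaged -0.08 ± 0.36 (SD, n = 9; exact two-sided sign-flip permutation test, p = 0.520). The SD of this within-array difference was smaller than the SD of either gene between arrays of any genotype. Where one gene was high on an array the other was too, and the array-to-array spread was therefore common to both spots. The root mean square difference between the genes was 0.348. Whether that likeness comes from the 2 transcripts or from each spot binding both was not tested.

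**Figure D3:**
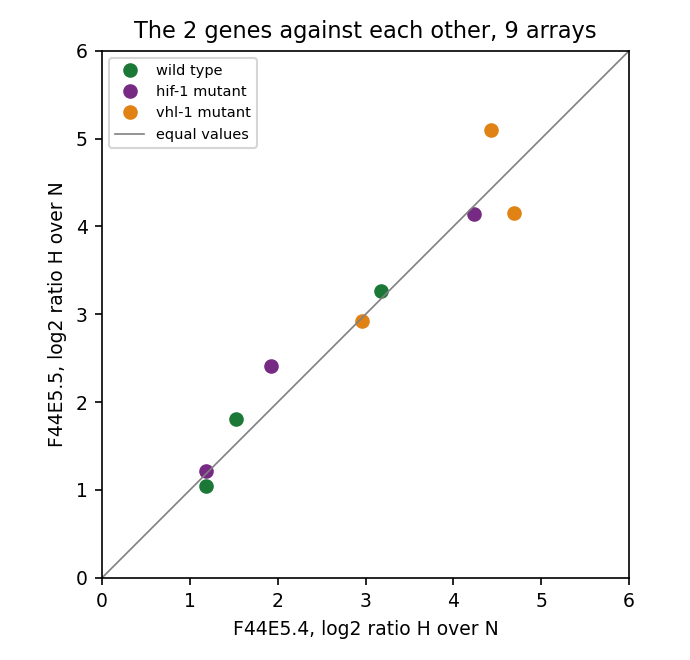
Log2 ratio of H over N of F44E5.5 (vertical axis) against F44E5.4 (horizontal axis), 1 point per array and coloured by genotype, with the line of equal values. The 9 points follow the line, with the widest departures (0.54 and 0.67) on vhl-1 mutant arrays 2 and 3.

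Spots next to the pair in spot number had lower medians over the 9 arrays. The ranges of the unnamed ones overlapped with those of the pair's spots, and no within-array comparison was made. The spot just before F44E5.5 belonged to F44E5.2 and lay between -0.65 and -0.01 on the 9 arrays, and the unnamed spot after it between -0.25 and 1.1 (median 0.27). The unnamed spots beside F44E5.4 had medians of 0.50 and 0.47 over the 9 arrays, with ranges from -3.49 to 1.23 and from -0.47 to 2.32.

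On the chromosome, the nearest measured neighbours of the pair did not pass the test. Of the 10 nearest annotated genes, 5 on either side, 2 had a named spot. The pseudogene F44E5.3, whose annotation starts 305 bases beyond the pair, was at 0.19 ± 0.77 in wild type, -0.12 ± 0.43 with hif-1 mutated and -0.40 ± 0.41 with vhl-1 mutated (SD, n = 3 each). F44E5.2 was at -0.22 ± 0.08, -0.35 ± 0.32 and -0.12 ± 0.08 (SD, n = 3 each). Neither passed the test in any genotype. A wider window of 50 kb on either side, set after the values had been seen, held 11 named protein-coding genes, F44E5.2 included. Of these 11 and the pseudogene, none passed in limma in wild type (lowest adjusted p = 0.458) or the hif-1 mutant (lowest 0.177). In the vhl-1 mutant F13D12.5 fell by 1.00 (SE 0.282, adjusted p = 0.0435) and 0 rose; the call was lost in 5 of the 9 fits with an array left out, wild type array 1 or 2 or any vhl-1 mutant array (adjusted p up to 0.244). Averaged over the genotypes VF13D12L.3 rose by 0.47 (SE 0.150, limma adjusted p = 0.0416). This call was lost in 7 of 9 such fits, all but those without hif-1 or vhl-1 mutant array 1 (adjusted p up to 0.128). For the average 21.5% of all features passed in either direction. Within single genotypes the share passing in either direction was 1.42% (wild type), 1.75% (hif-1) and 9.18% (vhl-1). Of all features 5.15% passed as lower where vhl-1 was mutated. With 12 genes these counts cannot tell the neighbours from features at large.

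**Figure D4:**
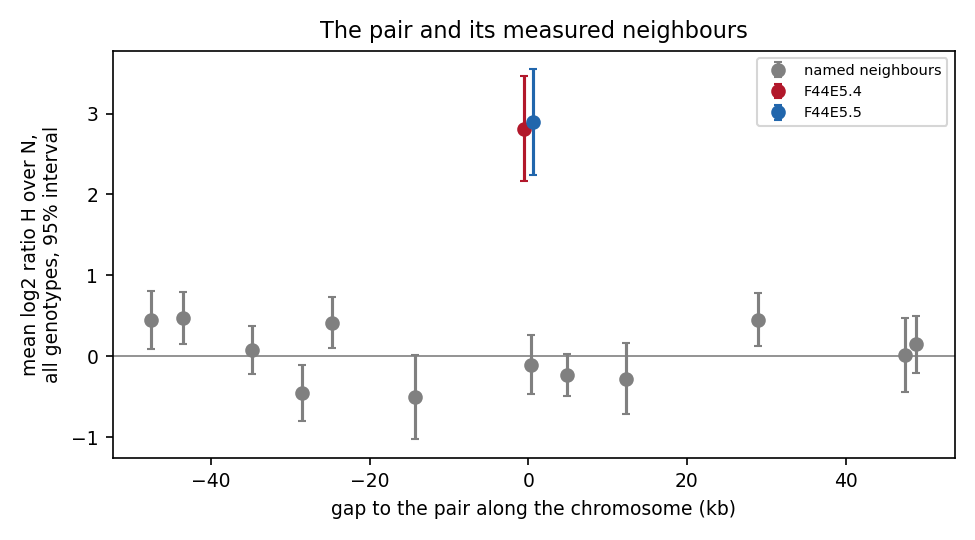
Mean log2 ratio of H over N over the 3 genotypes, with its 95% interval from the fit, against the gap in kb to the pair along chromosome II, for the 12 named neighbours (grey) and the pair (red and blue, drawn side by side near 0). The pair lies at 2.81 and 2.89, and the neighbours between -0.51 and 0.47.

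Of 12 genes listed for the HSP70 family, 4 had a named spot: the pair and the more distant relatives T24H7.2 and T14G8.3. T24H7.2 was at 0.18 ± 0.48 in wild type, 0.23 ± 0.59 with hif-1 mutated and 0.73 ± 0.27 with vhl-1 mutated (SD, n = 3 each). T14G8.3 was at -0.12 ± 0.43, 0.24 ± 0.53 and 0.77 ± 0.37 (SD, n = 3 each). Neither passed in limma in any genotype; in the vhl-1 mutant, where both were above 0 on 3 of 3 arrays, the adjusted p were 0.103 for T24H7.2 and 0.0840 for T14G8.3. Thus 2 of the 4, the pair itself, rose in the hif-1 mutant, where 0.475% of all features passed as higher, and in the vhl-1 mutant (4.03%), and 0 did in wild type (0.225%). The median of the 4 (1.07, 1.35 and 2.4 in wild type, hif-1 and vhl-1) is the midpoint of 1 member of the pair and 1 relative, and describes no shift of the family. The constitutive hsp-1, the endoplasmic reticulum chaperones hsp-3 and hsp-4, the mitochondrial hsp-6 and the inducible hsp-70 were not among the named spots and are not analysed here.

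The small heat shock proteins bind unfolding proteins without ATP and hold them for HSP70, and 2 of 16 listed genes had a named spot. hsp-16.21 was at 0.95, 3.67 and 1.68 on wild type arrays 1 to 3, at 2.57, 2.33 and 3.56 on the hif-1 mutant arrays, and at 0.41, 1.68 and 0.63 on the vhl-1 mutant arrays. It rose in wild type and the hif-1 mutant (limma adjusted p = 0.0295 and 0.00915) and was at 0.91 ± 0.68 in the vhl-1 mutant (SD, n = 3; adjusted p = 0.194). The wild type call was lost without wild type array 2, when the value was 1.32 (limma adjusted p = 0.287), and without array 3, while that of the hif-1 mutant held with each of the 9 arrays left out. hsp-16.20 averaged 1.65 ± 1.18 in wild type (SD, n = 3), 0.78 ± 1.28 (SD, n = 2) for hif-1 and 0.13 ± 0.51 (SD, n = 3) for vhl-1, with limma adjusted p of 0.0959, 0.428 and 0.867. The median of the 2 was 1.87, 1.8 and 0.52 in the 3 genotypes, where the medians over all features were 0.01, 0.02 and -0.003.

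By their means, the HSP70 pair was highest and hsp-16.21 lowest where vhl-1 was mutated. For hsp-16.21 the vhl-1 mutant was at -1.19 against wild type and at -1.91 against the hif-1 mutant. Neither difference passed (limma adjusted p = 0.536 and 0.768), nor did those of the pair. The mean of the pair minus hsp-16.21, taken within each array, was 0.16, -2.0 and 1.54 in wild type, -1.37, -0.16 and 0.62 in the hif-1 mutant, and 2.53, 2.74 and 4.13 in the vhl-1 mutant. All 3 vhl-1 mutant arrays lay above all arrays of the other genotypes. How many other genes would give such a gap from the pair was not counted. The mean of the pair minus hsp-16.21 was 3.23 higher in the vhl-1 mutant than in wild type and 3.44 higher than in the hif-1 mutant. The exact two-sided permutation test gave p = 0.1 for each, the smallest that 3 arrays against 3 allow. The hif-1 mutant differed from wild type by -0.20 (exact permutation p = 0.9). The design thus cannot bring it past 0.05, and the genes were chosen for this comparison with their values known.

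**Figure D5:**
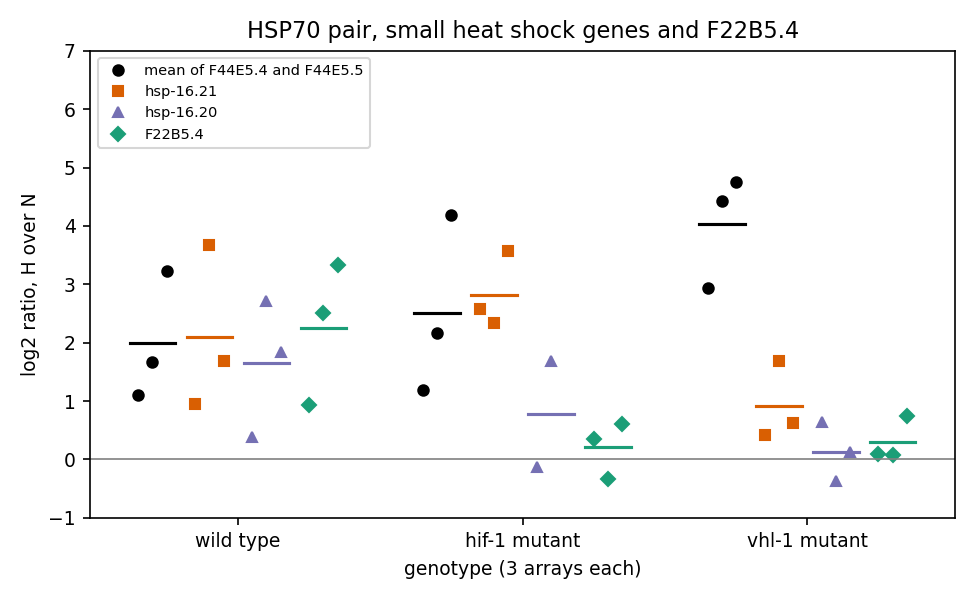
Log2 ratio of H over N on each array for the mean of F44E5.4 and F44E5.5 (black circles), hsp-16.21 (orange squares), hsp-16.20 (purple triangles) and F22B5.4 (green diamonds), by genotype, with bars at the means of the arrays with a value. In the vhl-1 mutant the pair lies between 2.94 and 4.76 and the other 3 genes between -0.38 and 1.68, while in wild type the genes overlap.

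F22B5.4, used as a target of HIF-1, was the single named gene of 9 listed for the HIF pathway. It was at 0.94, 2.50 and 3.33 in wild type, with a mean of 2.26 (limma adjusted p = 0.00813), a call lost without wild type array 2 or 3 (adjusted p up to 0.0851). In the mutants it was at 0.35, -0.33 and 0.60 (hif-1) and at 0.09, 0.08 and 0.74 (vhl-1), and did not pass (adjusted p = 0.793 and 0.623). Its differences from wild type, -2.05 (hif-1) and -1.96 (vhl-1), did not pass either (limma adjusted p = 0.603 and 0.280). The unadjusted limma p of these differences were 0.00160 and 0.00225. The mean of the pair minus F22B5.4 lay between -0.84 and 0.17 in wild type, between 0.84 and 3.59 in the hif-1 mutant and between 2.86 and 4.34 in the vhl-1 mutant. The wild type arrays did not overlap with those of either mutant, and how many other genes would give such a gap was not counted. The exact two-sided permutation p was 0.1 for each mutant against wild type, the smallest possible, with differences of 2.57 (hif-1) and 4.0 (vhl-1). The vhl-1 mutant exceeded the hif-1 mutant by 1.43 (exact permutation p = 0.2). This gene, too, was chosen for the comparison with its values known.

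Other chaperone genes were sparsely named. Among 11 genes of HSP90 and its co-chaperones, daf-41, the p23 co-chaperone, was measured, at -0.20, 0.46 and -0.05 in wild type, hif-1 and vhl-1, none past the test (adjusted p from 0.246 to 0.892). Of 7 regulators of the heat shock response, daf-16, a FOXO transcription factor, was measured. It was at 0.70, 0.71 and 0.78 in the 3 genotypes, past the test in none, and rose by 0.73 in their average (SE 0.155, limma adjusted p = 0.00645). None of 30 J-domain genes or 10 chaperonin genes had a named spot.

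Genes with a like pattern were sought among 6760 named genes with values on all 9 arrays, by the root mean square difference from the mean of the pair over the 9 arrays. F26A3.4 was nearest at 1.44, followed by F52E10.4 (1.57), cest-24 of the carboxylesterase family (1.63), T28C12.5 (1.77) and dpsm-1 (1.81), against a median of 3.2 over all named genes. None came near the 0.348 between F44E5.4 and F44E5.5, while 3 unnamed spots were nearer to the pair than F26A3.4, the nearest of them at 0.902. In the vhl-1 mutant these 5 genes averaged 2.22, 1.66, 1.72, 1.57 and 1.42 in that order, all below the pair. By correlation with the pair's mean over the 9 arrays, a measure that ignores the size of the change, the highest were F38C2.4 (r = 0.945), Y7A5A.3 (0.940), Y51A2B.4 (0.939), B0273.1 (0.918) and C09D8.2 (0.918). The 9 arrays share genotype and array effects, and these are the highest of 6760 values, so they are given as a description. These genes had smaller means than the pair, between 0.23 and 0.86 in the vhl-1 mutant. In wild type, where the pair was above 0, their means were all below 0, from -0.69 to -0.11. None passed the test in any genotype. C09D8.2 was 1.55 higher in the vhl-1 mutant than in wild type, which did not pass (limma adjusted p = 0.281).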

How the data were processed

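The deposited table gave 1 value per spot and array, taken as a log2 ratio between the channels; the authors' table was already close to centred on 0 (array medians from -0.062 to 0.061). The sources used here give no image analysis, background or normalisation steps, and no spot intensities were used, so signal over background is unknown. Signs were turned to H over N, each array was centred on its median, and spots of one gene were averaged. Names come from the platform's annotation, with 7741 spots matched by identifier to WBcel235, which gave the positions. Features with at least 2 values in every genotype (20858, of which 7179 named) were tested.

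limma 3.58.1 (lmFit, eBayes) in R 4.3.3 estimated the 3 genotype means jointly from the 9 arrays, with 6 residual and 6.95 prior degrees of freedom and Benjamini-Hochberg adjustment. Exact permutation tests and figures were made in Python 3.11.15. The fit was also run on simulated data with planted rises in the vhl-1 mutant and independent noise on each array. This checked that the estimates returned the planted size, and not the error rate of the calls in these data. The genes, lists and comparisons were chosen with earlier results of these data known; named besides the pair were measured members of 7 lists, neighbours, and the 5 genes most alike by each of 2 measures. hif-1 and vhl-1 have no named spot, so the genotypes were not checked. Across 19473 features, deviations of same-numbered arrays of different genotypes correlated at r from -0.204 to 0.272 (over 0.1 in 2 of 9 pairs). For arrays of different number r ran from -0.257 to 0.270. On these values over all features, numbers were not taken as pairs. For the pair itself, array 1 was the lowest in every genotype. With replicate number as a block, the SE of its response fell from 0.521 to 0.321 (F44E5.4) and from 0.525 to 0.236 (F44E5.5). Whether same-numbered arrays shared a batch was not tested. The 9 arrays limit the precision.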

Additional observations from a re-analysis of the deposited data

How the results depend on the processing

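The rise in the vhl-1 mutant and in the average over genotypes passed for both genes under every alternative run: deposited values without centring, arrays scaled to one spread, centring within print runs or print layout (both inferred from the spot numbers), named genes alone, features with all 9 values, the arrays of the comparison alone (vhl-1 mutant only), replicate number as a block, and each array left out. In the vhl-1 mutant the values without one array ran from 3.69 to 4.56 (F44E5.4) and from 3.54 to 4.62 (F44E5.5), and in the average from 2.51 to 3.02 and from 2.63 to 3.12. In the hif-1 mutant the calls were lost with scaled arrays (2.58 and 2.67; adjusted p = 0.0957 and 0.0841), print layout centring (2.35 and 2.57; 0.0687 and 0.0611) and named genes alone (2.45 and 2.59; 0.0635 and 0.0563), and that of F44E5.4 with the hif-1 mutant arrays alone (2.45; 0.0727). Without one array they ran from 1.55 to 3.08 (F44E5.4) and from 1.81 to 3.27 (F44E5.5). In wild type both passed in the wild type arrays alone (1.96 and 2.04, limma adjusted p = 0.0340 and 0.0338). They also passed with the replicate block, at the same values (limma adjusted p = 0.00853 and 0.00286), although the numbers were not taken as pairs. Without one array the wild type values ran from 1.35 to 2.35 (F44E5.4) and from 1.42 to 2.53 (F44E5.5). The block changed no other call of the pair (that of F13D12.5 was lost). No alternative brought a difference between genotypes past the test. hif-1 mutant minus wild type ran from -0.41 to 1.12 (F44E5.4) and from -0.23 to 1.24 (F44E5.5) with one array left out, below 0 only without hif-1 mutant array 3, vhl-1 mutant minus wild type from 1.67 to 2.67 and from 1.5 to 2.63, and vhl-1 minus hif-1 mutant from 0.95 to 2.47 and from 0.78 to 2.25. Scaling the arrays to one spread brought these differences to 0.28 and 0.29, 1.44 and 1.36, and 1.15 and 1.06, and print run centring brought that of F44E5.4 between the mutants to 1.15. The difference between the genes stayed between -0.16 and -0.01. The same settings were applied, after the data had been seen, to 6 other calls: those of hsp-16.21 in the hif-1 mutant and of daf-16 in the average held in each, while hsp-16.21 in wild type lost its call in 4 of 8 settings besides the left-out arrays (adjusted p up to 0.111), F22B5.4 in 1 (0.0511), F13D12.5 in 4 (up to 0.0993) and VF13D12L.3 in 1 of 7 (0.0589). The causes were not tested. The number of features called also depended on the setting: 296 in wild type became 0 with named genes alone and 540 with scaled arrays, 365 in the hif-1 mutant 18 (named genes alone) to 426, 1915 in the vhl-1 mutant 302 (named genes alone) to 2794, and 4493 in the average 1109 to 5153, while the 3 differences between genotypes gave at most 4.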
